A study of Mus musculus with 8 samples.

Results

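Krtap13, Krtap13-1, Krtap13-20, Krtap13-21, Krtap13-23 and Krtap13-24 are 6 keratin-associated protein genes that lie side by side on mouse chromosome 16, and they are 6 of the 55416 genes in the count table. They were selected on their measured levels, because some of them were absent from the control epidermis and present in the epidermis labelled as lacking Rora. That description held for 4 of the 6. Krtap13, Krtap13-20, Krtap13-21 and Krtap13-23 had between 0 and 7 counts in each control library and between 21 and 2487 counts in each RoraEKO library. Krtap13-1 was abundant in both genotypes, Krtap13-24 was low in both genotypes, and neither was switched on. Since control against RoraEKO is the contrast that chose these genes, their levels are described below without a test.

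RNA-seq was performed on the peeled back epidermis of mouse pups at postnatal day 4, in 4 libraries labelled WT (controls A1, B1, C1 and C6) and 4 labelled as Rora knockout (RoraEKO replicates A3, B4, C2 and C3). Per the study's methods, RoraEKO mice came from a cross of Rora flox/flox mice with a K14-Cre line, in which the keratin 14 promoter drives Cre recombinase in basal keratinocytes and the outer root sheath of hair follicles and, through them, in the cells that descend from them. The methods name the Cre line as B6N.Cg-Tg(KRT14-cre), and the study's text describes control mice as littermates. Whether the control mice carried the floxed alleles or Cre, and the strain of each animal, is not given in the sources used here. The study's text gives n = 4 for each genotype, and the labels do not tie a library to an animal.

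Keratin-associated proteins are small proteins of the hair shaft, mostly encoded by genes of a single exon, that lie between the keratin filaments of the cortex and cuticle and are joined to them by disulfide bonds. The Krtap13 genes encode members of the high-sulfur class, and most families of that class sit in clusters with other Krtap genes, one of which is on mouse chromosome 16. At postnatal day 4 the follicles of mouse back skin are growing and forming their first shafts. RORα, the product of Rora, is a nuclear receptor that binds AGGTCA half-sites preceded by an A- and T-rich stretch.

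In the mouse GENCODE annotation (release 39, GRCm39), each of the 6 genes has 1 transcript of 1 exon. In order along chromosome 16 they are Krtap13-1 (88525750 to 88526499, plus strand), Krtap13 (88547632 to 88548523, minus strand), Krtap13-20 (88555735 to 88556680, plus strand), Krtap13-21 (88570067 to 88571094, minus strand), Krtap13-23 (88574784 to 88575616, plus strand) and Krtap13-24 (88608328 to 88609108, minus strand). The 4 switched-on genes are consecutive and occupy 27.985 kb, from 88547632 to 88575616, within the 83.359 kb that all 6 occupy. They are separated from each other by 7.211, 13.386 and 3.689 kb. A gap of 21.132 kb lies between Krtap13-1 and the first of them, and a gap of 32.711 kb between the last of them and Krtap13-24. Strand alternates along the row, so that the switched-on genes are 2 on each strand.

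The 250 bases before the annotated start of each gene are shown because a motif is common to all 6 and because Krtap13 and Krtap13-20 share a long run of bases there. The sequences are from GRCm39, read 5′ to 3′ on the strand of the gene, and capitals mark matches to TATAAA, the core of a TATA box, and to AGGTCA, the core of a nuclear receptor half-site.
Krtap13 (chr16:88548524-88548773, minus strand): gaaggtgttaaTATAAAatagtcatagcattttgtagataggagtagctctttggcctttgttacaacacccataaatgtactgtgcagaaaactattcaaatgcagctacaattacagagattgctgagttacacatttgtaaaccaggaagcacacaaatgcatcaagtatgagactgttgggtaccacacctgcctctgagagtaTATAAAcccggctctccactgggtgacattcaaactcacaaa
Krtap13-20 (chr16:88555485-88555734, plus strand): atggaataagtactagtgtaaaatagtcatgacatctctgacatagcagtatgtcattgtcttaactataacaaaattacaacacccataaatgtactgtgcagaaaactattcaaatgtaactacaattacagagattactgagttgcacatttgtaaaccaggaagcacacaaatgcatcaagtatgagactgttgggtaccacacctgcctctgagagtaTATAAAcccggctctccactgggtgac
Krtap13-21 (chr16:88571095-88571344, minus strand): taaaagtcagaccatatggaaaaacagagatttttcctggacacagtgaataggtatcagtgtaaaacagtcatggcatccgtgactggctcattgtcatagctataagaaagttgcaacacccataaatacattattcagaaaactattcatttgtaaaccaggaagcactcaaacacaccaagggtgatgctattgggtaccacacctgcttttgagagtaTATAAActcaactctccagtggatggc
Krtap13-23 (chr16:88574534-88574783, plus strand): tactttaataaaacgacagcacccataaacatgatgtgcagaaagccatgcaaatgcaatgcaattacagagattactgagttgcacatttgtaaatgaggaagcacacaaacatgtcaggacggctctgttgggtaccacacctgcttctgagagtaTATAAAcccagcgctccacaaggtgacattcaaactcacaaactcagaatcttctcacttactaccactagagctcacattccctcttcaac
Krtap13-1 (chr16:88525500-88525749, plus strand): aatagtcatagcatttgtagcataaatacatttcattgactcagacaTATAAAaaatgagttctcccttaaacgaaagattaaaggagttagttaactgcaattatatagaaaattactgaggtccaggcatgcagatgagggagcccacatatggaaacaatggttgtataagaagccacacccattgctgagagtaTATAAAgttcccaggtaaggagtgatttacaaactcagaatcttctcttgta
Krtap13-24 (chr16:88609109-88609358, minus strand): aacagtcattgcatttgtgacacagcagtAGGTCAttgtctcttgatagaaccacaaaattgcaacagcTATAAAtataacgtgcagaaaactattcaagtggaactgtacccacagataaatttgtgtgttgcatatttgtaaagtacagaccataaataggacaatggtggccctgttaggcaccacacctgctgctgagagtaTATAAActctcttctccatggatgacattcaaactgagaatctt

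TATAAA or its reverse complement TTTATA was in 6 of 6 windows, in each case as TATAAA on the strand of the gene. Among the 32851 promoters of the RefSeq table for GRCm38.p6, 12.4% held a match on either strand in the 250 bases before the start and 7.59% held one on the strand of the gene. The match nearest to the start began 42 bases before it in Krtap13, 27 bases before it in Krtap13-20 and Krtap13-21, 52 bases before it in Krtap13-1 and 44 bases before it in Krtap13-24. In Krtap13-23 it began 92 bases before the start, which in this annotation is the first base of the coding sequence. AGGTCA or its reverse complement TGACCT was in 1 of the 6 windows, that of Krtap13-24, 221 bases before the start, against 14.0% of the RefSeq promoters. The motifs share no overlap, and a match is a run of letters and not a measured binding site. Windows of members that were switched on and of members that were not thus both held TATAAA, while that of Krtap13-22, a neighbouring gene of the family described next, held neither motif. Only exact matches were searched, and the window of Krtap13-22 held the similar run TATATAA.

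In coding sequence, the switched-on genes were more like one another than like the rest of the family. Their coding sequences were 81.4% to 88.4% identical to one another (6 pairs), while each was between 61.6% and 65.0% identical to Krtap13-1, Krtap13-24 and Krtap13-22, a 7th gene of the family that lies 20.899 kb from Krtap13-1 and is no member of the group studied here. Upstream windows were aligned end to end from the annotated starts. In the switched-on genes, the TATAAA nearest to the start began 27 to 92 bases before it. A low upstream identity can therefore reflect this offset, and likeness upstream is not ranked. On this measure, 5 of the 6 pairs of switched-on genes were 52.6% to 65.8% identical. Krtap13-24, which was not switched on, was 66.7% identical to Krtap13 and 65.6% to Krtap13-20. The remaining pair, Krtap13 and Krtap13-20, was 80.7% identical and shared a run of 102 bases, which can be followed in the sequences above, holds the TATAAA nearest to the start and ends at the last base before the start of Krtap13-20. This likeness bears on the counts. Of all runs of 50 bases in the transcripts, 24.9% in Krtap13, 11.3% in Krtap13-20, 22.6% in Krtap13-21 and 29.5% in Krtap13-23 also occurred in another transcript, and that other transcript was always one of the same 4. The split of reads among these 4 is therefore uncertain, while a read shared only within the 4 counts once in their sum. Krtap13-1, Krtap13-22 and Krtap13-24 shared no such run with any transcript.

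The counts are estimated read counts per gene, rounded to whole numbers, and CPM are counts per 1000000 counts after scaling between libraries with TMM factors. The libraries held 17286924 to 26705532 counts, and 3 counts, used as the floor of detection, were 0.113 to 0.196 CPM; floors and counting intervals cover counting error only. Across 13147 tested genes, a gene was called when its Benjamini-Hochberg adjusted p (quasi-likelihood test, edgeR) was under 0.05 and its fold change was over 1.5. This called 725 genes (5.51%), of which 302 (2.30%) were higher and 423 (3.22%) were lower in RoraEKO, and the genotypes did not overlap in 1701 genes (12.9%). Control replicates C1 and C6 expressed Xist (416 and 527 CPM), and the other 6 libraries had 0.0546 CPM or less. Ddx3y, a gene of the Y chromosome, was at 0 CPM in C1 and C6 and at 15.7 and 16.9 CPM in controls A1 and B1. In the RoraEKO libraries it was at 20.8 to 24.1 CPM. By these genes C1 and C6 read as female and the other libraries as male, so sex is partly confounded with genotype. Fewer cells of a type and less RNA per cell cannot be told apart in these bulk samples.

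Rora itself, the targeted gene, did not separate the genotypes. It was at 158, 193, 187 and 309 CPM in controls A1, B1, C1 and C6 and at 154, 189, 237 and 206 CPM in RoraEKO A3, B4, C2 and C3. The log2 fold change was -0.11 (edgeR adjusted p = 0.877, standard error 0.245), and it turned positive without control C6 (0.15) or without RoraEKO A3 (0.045). Gene counts sum over all exons and do not show the deleted part alone, so the direction of every difference below rests on the labels of the libraries.

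**Figure D1:**
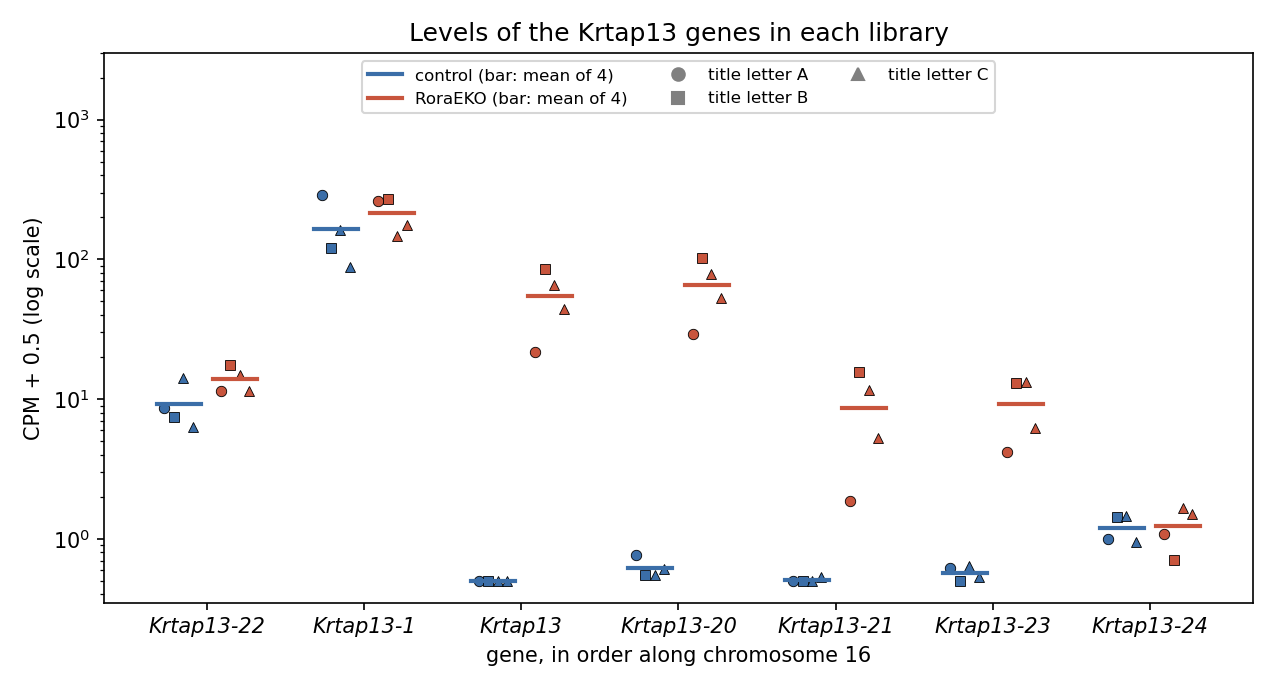
Level of each Krtap13 gene in each library, as CPM plus 0.5 on a log scale, in order along chromosome 16, with control in blue, RoraEKO in red, marker shape for the first letter of the sample title and a bar at the mean of 4 libraries. The 4 genes in the middle of the row lie at the bottom of the plot in control and between 1.37 and 102 CPM in RoraEKO, while Krtap13-22, Krtap13-1 and Krtap13-24 overlap.

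Krtap13 (ENSMUSG00000050224) had 0 counts in all 4 control libraries. In RoraEKO A3, B4, C2 and C3 it had 326, 2063, 1350 and 881 counts, which were 21.3, 84.8, 65.0 and 44.0 CPM. Its mean in RoraEKO was 53.8 ± 27.3 CPM (SD, n = 4), at least 404-fold higher than the floor of 3 counts per control library. The lowest RoraEKO library was thus far above the floor, and the highest was 3.98 times the lowest.

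Krtap13-20 (ENSMUSG00000068078) was the most abundant of the switched-on genes. It had 7, 1, 1 and 3 counts in controls A1, B1, C1 and C6 and 442, 2487, 1614 and 1055 counts in RoraEKO A3, B4, C2 and C3. These were 0.120 ± 0.102 CPM in control and 65.4 ± 31.6 CPM in RoraEKO (SD, n = 4 each), and the ratio of the pooled counts, scaled for depth, was 535 (exact 95% counting interval 306 to 1037). Only control A1 exceeded the floor of 3 counts, and it held most of the control counts of this gene, so that the ratio was 919 without it. Gm60873, a long noncoding RNA gene on the opposite strand that is not in the table, overlaps it. Per the study's methods the libraries were stranded, and the strand setting of the counting is not given in the sources used here.

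Krtap13-21 (ENSMUSG00000048830) had 1 count in all the control libraries together, in replicate C6. RoraEKO A3, B4, C2 and C3 had 21, 368, 232 and 96 counts, or 1.37, 15.1, 11.2 and 4.79 CPM. The mean in RoraEKO was 8.12 ± 6.19 CPM (SD, n = 4), and the ratio of the pooled counts was 823, with an exact 95% counting interval of 147 to 32552 that reflects the single control count. Without control C6 no ratio can be formed. It varied most among the switched-on genes, from replicate A3 at the lower end to replicate B4 at the upper.

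Krtap13-23 (ENSMUSG00000009047) had 3, 0, 3 and 1 counts in controls A1, B1, C1 and C6, and 56, 306, 263 and 115 counts in RoraEKO A3, B4, C2 and C3. Its levels were 0.0734 ± 0.0659 CPM in control and 8.66 ± 4.65 CPM in RoraEKO (SD, n = 4 each), with a ratio of the pooled counts of 121 (exact 95% counting interval 58.6 to 303). No control library exceeded the floor of 3 counts, and every RoraEKO library did.

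Krtap13-1 (ENSMUSG00000056350) differed from these genes in being abundant in both genotypes. It had 7578, 2194, 3413 and 2320 counts in controls A1, B1, C1 and C6, or 288, 120, 162 and 87.1 CPM. RoraEKO A3, B4, C2 and C3 had 4028, 6613, 3026 and 3501 counts, or 263, 272, 146 and 175 CPM. The ranges overlapped, the highest library was a control, and the means were 164 ± 88.2 CPM in control and 214 ± 63.0 CPM in RoraEKO (SD, n = 4 each). Control libraries therefore held abundant RNA of a gene 21.132 kb from Krtap13 while Krtap13 was at 0.

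Krtap13-24 (ENSMUSG00000116636), at the other end of the row, was low throughout. It had 13, 17, 20 and 12 counts in controls A1, B1, C1 and C6 and 9, 5, 24 and 20 counts in RoraEKO A3, B4, C2 and C3. This was 0.705 ± 0.269 CPM in control and 0.737 ± 0.428 CPM in RoraEKO (SD, n = 4 each), and the ranges overlapped. Every control library held more counts of this gene than of any switched-on gene, and the difference between genotypes was too small for these counts to show, with a ratio of the pooled counts of 1.07 (exact 95% counting interval 0.737 to 1.56). It overlaps 4930553J12Rik, a long noncoding RNA gene on the opposite strand.

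All 6 members passed the filter on low counts. In the fit across all genes 4 of them were called higher, where 2.30% of genes tested were, and none was called lower, where 3.22% were. The genotypes did not overlap in the same 4, where 12.9% of genes tested did not overlap. These counts repeat the pattern for which the genes were chosen and are no further result, and the 4 passed the filter through the RoraEKO libraries alone.

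Per kb of exon, the order of the members in RoraEKO was Krtap13-1 (285 ± 84.0 CPM per kb), Krtap13-20 (69.1 ± 33.5), Krtap13 (60.3 ± 30.6), Krtap13-23 (10.4 ± 5.59), Krtap13-21 (7.89 ± 6.02) and Krtap13-24 (0.944 ± 0.548; all SD, n = 4). Neighbours in this order whose ranges overlapped were Krtap13-20 with Krtap13, Krtap13-23 with Krtap13-21, and Krtap13-21 with Krtap13-24, whose lowest (1.33) and highest (1.48) libraries crossed. Krtap13-1 stood apart from Krtap13-20, and Krtap13 from Krtap13-23. In control the order began with Krtap13-1 (219 ± 118 CPM per kb) and Krtap13-24 (0.903 ± 0.345), and the other 4 were at 0.127 or less. The mean RoraEKO levels of the switched-on genes thus lay between those of their outer neighbours, Krtap13-1 and Krtap13-24.

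The switched-on genes varied in nearly the same order across the RoraEKO libraries. Their summed counts were 10, 1, 4 and 5 in controls A1, B1, C1 and C6 and 845, 5224, 3459 and 2147 in RoraEKO A3, B4, C2 and C3. On the CPM scale the RoraEKO sums were 55.1, 215, 167 and 107, with a mean of 136 ± 69.5 (SD, n = 4). Krtap13, Krtap13-20 and Krtap13-21 were each highest in B4, followed by C2, C3 and A3, and Krtap13-23 differed only in that C2 (12.7 CPM) was marginally above B4 (12.6 CPM).

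The proportions of the 4 genes were also similar between RoraEKO libraries. Krtap13 made up 38.6% to 41.0% of their summed counts and Krtap13-20 made up 46.7% to 52.3%. The counts of Krtap13 were 0.738, 0.830, 0.836 and 0.835 times those of Krtap13-20 in replicates A3, B4, C2 and C3. Krtap13-23 contributed 5.36% to 7.60%. Krtap13-21 had the widest range, from 2.49% in A3 to 7.04% in B4. Because the genes share sequence, estimation can tie their counts to one another, and the part of this in their common proportions was not tested.

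The pattern was present within each first letter of the sample titles, whose meaning the labels do not give. With letter A, the summed counts of the 4 genes were 10 in the control library and 845 in the RoraEKO library, and with letter B they were 1 and 5224. With letter C they were 4 and 5 in control and 3459 and 2147 in RoraEKO. Letters A and B hold 1 library of each genotype. The control libraries also differed in Xist, which only C1 and C6 expressed, and the 4 genes summed to 10 and 1 counts in A1 and B1 and to 4 and 5 counts in C1 and C6.

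**Figure D2:**
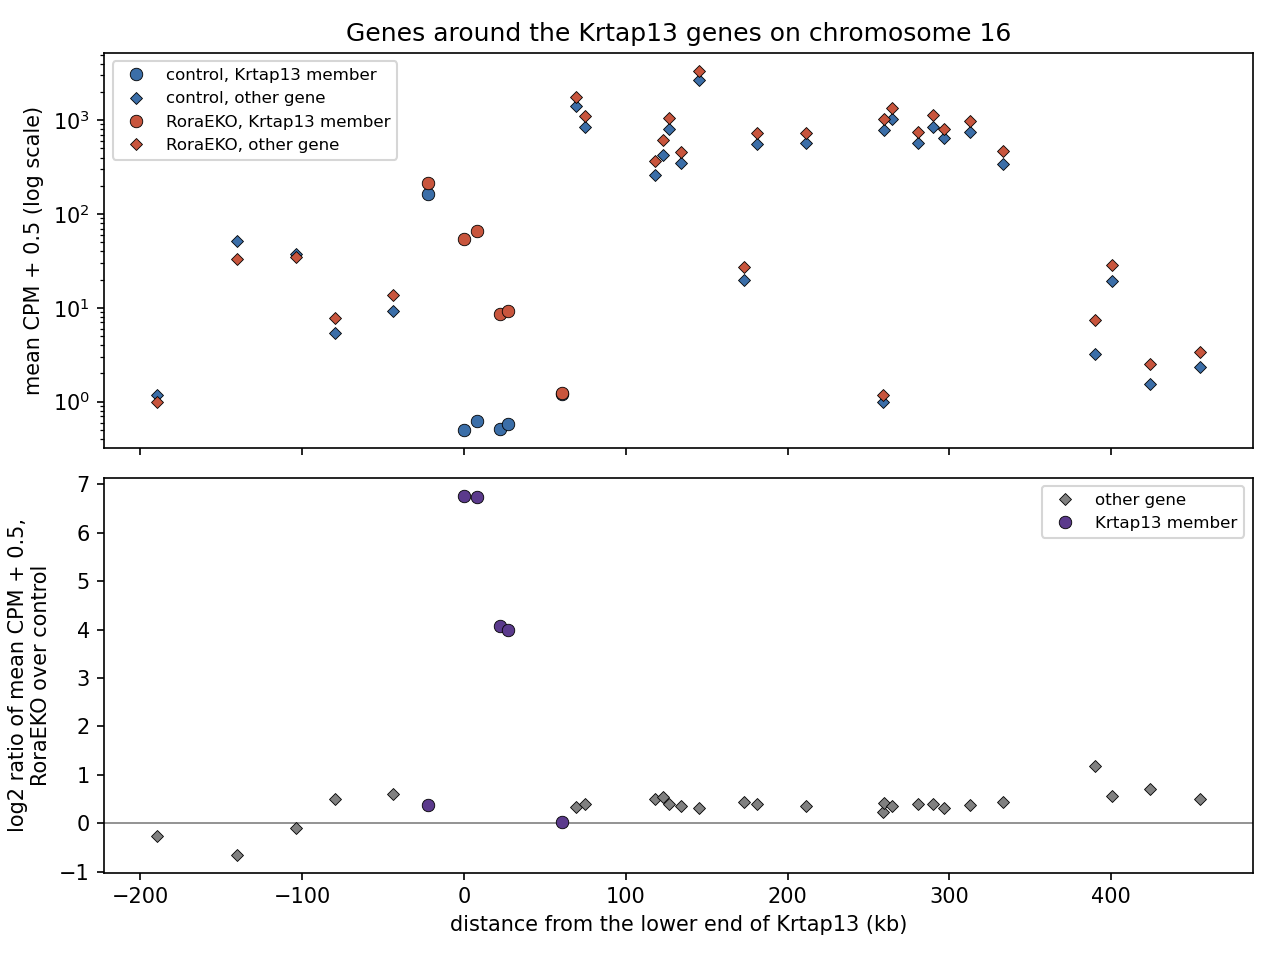
Genes within 500 kb of the Krtap13 members that passed the filter, by distance in kb from the lower end of Krtap13. The upper panel shows the mean CPM plus 0.5 of 4 libraries per genotype on a log scale, and the lower panel shows the log2 ratio of these means, in which the 4 switched-on genes stand above 3 and every other gene is below 2.

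Genes on either side of the members were compared next. The window of 500 kb holds 40 other genes of the table, of which 27 were tested and 0 were called by edgeR (5.51% of all genes tested were called), with 2 of the 27 at an unadjusted p under 0.05 and 0 called by DESeq2. Of the 27, 24 had a log2 fold change above 0, with a median of 0.41, while the median over all tested genes was -0.04. The largest was that of krtap20-23, from 2.72 ± 0.865 to 6.84 ± 4.15 CPM (log2 fold change 1.32, adjusted p = 0.201, edgeR). Leaving out control replicate C1 or RoraEKO replicate B4 gave 1 called gene in each case.

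Krtap13-22 (88504057 to 88504850, minus strand), the nearest tested gene below Krtap13-1 and the remaining gene of the Krtap13 name, was expressed in both genotypes. It had 213, 127, 291 and 155 counts in controls A1, B1, C1 and C6 and 169, 414, 300 and 220 counts in RoraEKO A3, B4, C2 and C3. The ranges overlapped through control replicate C1, and the means of 8.66 ± 3.54 and 13.4 ± 2.92 CPM (SD, n = 4 each) gave a log2 fold change of 0.63 (edgeR adjusted p = 0.258, standard error 0.307), which passed the cutoffs without control replicate C1 (0.94, adjusted p = 0.0423). Next below it were Krtap27-1 (log2 fold change 0.55, adjusted p = 0.419) and Krtap26-1 (-0.09, adjusted p = 0.977; 1.31 without control replicate A1).

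Above Krtap13-24, the nearest tested gene was Krtap15-1, at a distance of 7.994 kb. Krtap15-1 and Krtap14, keratin-associated protein genes of the high-sulfur class, were among the abundant genes of the epidermal libraries, with 1404 ± 457 against 1765 ± 277 CPM and 840 ± 332 against 1114 ± 279 CPM (control against RoraEKO, SD, n = 4 each). In edgeR these were log2 fold changes of 0.33 (adjusted p = 0.578) and 0.41 (adjusted p = 0.570). For Krtap19-1, of the high-glycine and tyrosine class, the log2 fold change was 0.50 (adjusted p = 0.402, edgeR). The genes that flank the members on both sides were thus transcribed in control in the same libraries in which the 4 switched-on genes had 0 to 7 counts.

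**Figure D3:**
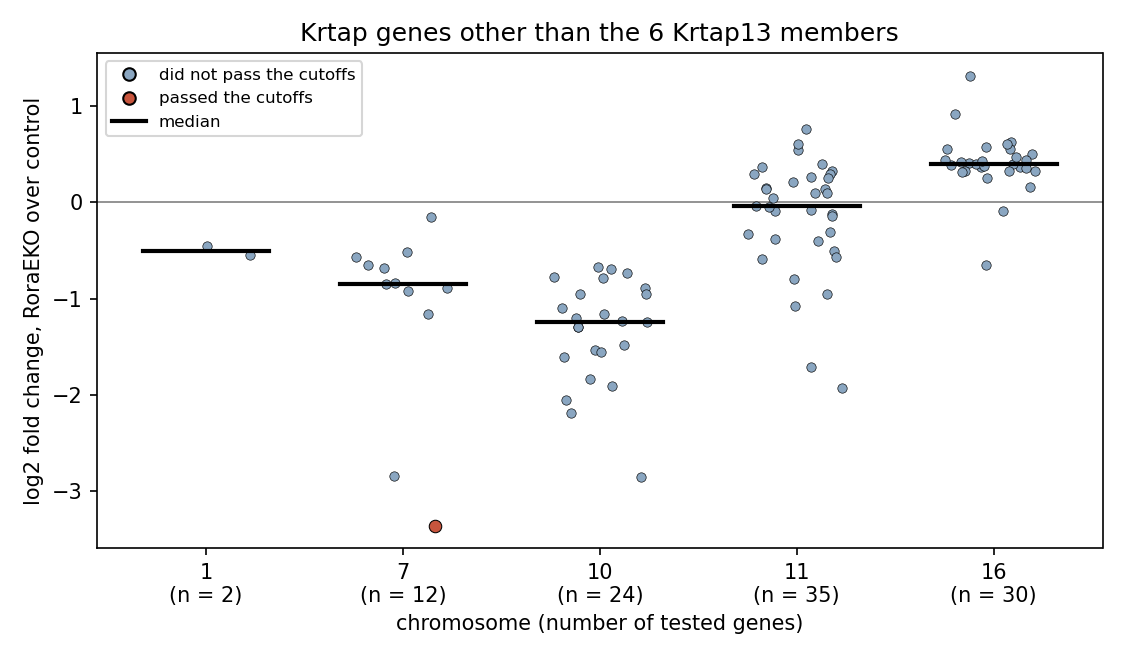
Log2 fold change, RoraEKO over control, of the 103 tested Krtap genes that are not members, by chromosome, with a bar at the median. Genes of chromosome 16 centre on 0.40 and genes of chromosome 10 on -1.24, and the red point is Krtap5-2, which was called lower.

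The rest of the Krtap genes was compared in the same way. The table holds 108 others, of which 103 were tested, 0 were called higher and 1 was called lower by edgeR (14 had an unadjusted p under 0.05, and DESeq2 also called 0 higher). The called gene was Krtap5-2 on chromosome 7, which encodes an ultra-high-sulfur keratin-associated protein and was at 161 ± 126 CPM in control and 15.7 ± 8.11 CPM in RoraEKO (log2 fold change -3.36, standard error 0.643, adjusted p = 0.00802). Its log2 fold change ranged from -3.64 to -2.66 with libraries left out. The number called lower was sensitive to the fit and was 8 with DESeq2, 7 when all genes with at least 1 count were kept and 14 with the title letter as a block or with Xist as a covariate. None of the 108 had the pattern of at most 3 counts in each control and more than 3 counts in each RoraEKO library.

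On chromosome 16, 28 of 30 other tested Krtap genes had a log2 fold change above 0, with a median of 0.40. That median was between 0.18 and 0.68 under all alternatives. Most of the tested neighbours within 500 kb are among these 30 genes, so this shift and that of the neighbours are largely the same observation. On the other chromosomes 56 of 73 were below 0, with a median of -0.67, among them 24 of 24 on chromosome 10 and 12 of 12 on chromosome 7. The size of these shifts depended on control A1, without which 38 of 73 were below 0 (median -0.01), with 23 of 24 on chromosome 10 (median -0.42 in place of -1.24) and 9 of 12 on chromosome 7 (-0.07 in place of -0.85). With Xist as a covariate 62 of 73 were below 0 (median -1.24). On chromosome 11 the median was -0.04 and had no steady sign, from -0.22 without control B1 to 0.50 without control A1, and it was 0.0011 with RLE scaling. The 3 with the highest control level were Krtap7-1, Krtap1-5 and Krtap8-1, at 4006 ± 1837, 3090 ± 847 and 2856 ± 1234 CPM in control and 4772 ± 1075, 3870 ± 1400 and 3567 ± 944 CPM in RoraEKO (SD, n = 4 each), and none was called. Fold changes of the members called higher were thus accompanied by called rises in no other Krtap gene in this fit.

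**Figure D4:**
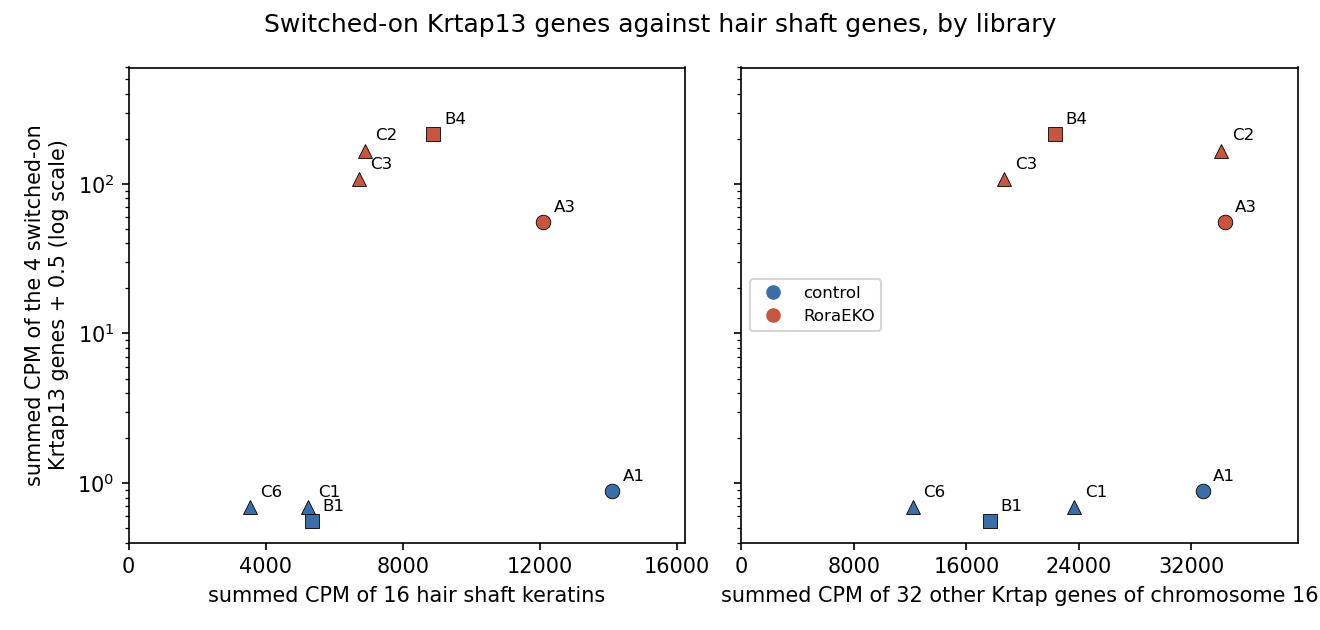
Summed CPM plus 0.5 of the 4 switched-on Krtap13 genes (log scale) in each library against the summed CPM of 16 hair shaft keratins and of 32 other Krtap genes of chromosome 16 (linear scales), with control in blue and RoraEKO in red. Control replicate A1 has the highest keratin sum, 14114 CPM, and 0.381 CPM of the switched-on genes.

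The summed levels of hair follicle markers overlapped between the genotypes, and the overlap of the hair shaft keratins rested on control A1. The 16 hair shaft keratins, partners of keratin-associated proteins in the shaft, summed to 14114, 5353, 5233 and 3539 CPM in controls A1, B1, C1 and C6, against 12095, 8895, 6894 and 6734 CPM in RoraEKO A3, B4, C2 and C3. Control replicate A1 had the highest keratin sum of all libraries. It had 0 counts of Krtap13 and 10 counts of the 4 switched-on genes together, the most of any control. RoraEKO replicate A3 had the highest keratin sum of its genotype with the lowest sum of the switched-on genes. None of the 16 keratins was called by edgeR, 0 had an unadjusted p under 0.05, and 0 were called by DESeq2, with a median log2 fold change of 0.15 that was below 0 with Xist as a covariate (-0.40) and without control C1 (-0.015), control C6 (-0.07) or RoraEKO A3 (-0.10). Without control A1 the keratin sums did not overlap, 15 of 16 keratins were above 0 with a median of 0.86, and 4 were called higher. The part of this in the levels of the Krtap13 genes was not tested. Krt33a, the most abundant of them in control, was at 1126 ± 629 and 1243 ± 352 CPM (control and RoraEKO, SD, n = 4 each).

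The 11 genes of the inner root sheath and companion layer, which surround the growing shaft, had a median log2 fold change of 0.01 (-0.65 with Xist as a covariate, and 0.73 with 11 of 11 above 0 without control A1), and 0 were called by edgeR or DESeq2, with 0 at an unadjusted p under 0.05. Tchh, which encodes trichohyalin, was the highest of them at 8260 ± 5891 CPM in control and 9296 ± 3239 CPM in RoraEKO. Of 18 regulators of the hair matrix and shaft (median -0.03, 0.49 without control A1 and -0.62 with Xist as a covariate), 1 was called, and it was lower. Gata3, a transcription factor of the inner root sheath lineage, was at 126 ± 36.3 CPM in control and 74.3 ± 8.64 CPM in RoraEKO (log2 fold change -0.77, adjusted p = 0.0493, edgeR; 0.0532 with RLE scaling, and the call was lost without any one of 7 libraries). Dlx3, a homeobox factor of the hair matrix and the highest regulator in control, was at 301 ± 151 and 286 ± 67.6 CPM.

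Krt1 and Krt10, keratins of the suprabasal layers, were higher in every RoraEKO library than in any control, Krt15 (95.6 to 126 CPM in control and 55.4 to 93.9 CPM in RoraEKO) and Krt2 (0.273 to 1.28 and 0.0411 to 0.150 CPM) were lower in every one, and the interfollicular keratinocyte markers as a list had no common direction. The 10 listed genes, which include keratins of the basal and suprabasal layers and proteins of the cornified envelope, summed to 50692 to 75170 CPM in control and to 92327, 113132, 101028 and 90482 CPM in RoraEKO A3, B4, C2 and C3, without overlap, and most of the sum was Krt1 and Krt10. The highest and next highest sums, in B4 and C2, were in the libraries with the highest and next highest sums of the switched-on genes. B4 also stood apart in the basal keratins Krt14 (706 CPM, against 96.2 to 187 CPM in the other RoraEKO libraries) and Krt5 (371 CPM, against 63.4 to 78.1 CPM). Of the 9 tested, 4 had a log2 fold change above 0 and 5 below (median -0.04), and 0 were called by edgeR, with 2 at an unadjusted p under 0.05, while DESeq2 called 2 higher and 1 lower. The part of these differences in the levels of the Krtap13 genes was not tested. Melanocyte markers (8 genes, 52.2 to 145 CPM in control and 57.1 to 106 CPM in RoraEKO), sebocyte markers (7 genes, 108 to 358 and 96.1 to 227 CPM), fibroblast markers (6 genes, 1.37 to 6.38 and 2.51 to 10.4 CPM) and muscle markers (6 genes, 4.59 to 9.38 and 5.74 to 10.1 CPM) had sums that overlapped between genotypes, and 0 of their tested genes were called by edgeR or DESeq2, with 4, 1, 0 and 0 at an unadjusted p under 0.05 in edgeR. Of the melanocyte genes 6 of 8 were nonetheless below 0, with a median of -0.82 (-1.02 to -0.62 under the alternatives), and Mitf made up much of their sum.

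Genes of the whole table with the same pattern were then counted. Held to 3 counts at most in each control and more than 3 counts in each RoraEKO library, 29 of the 55416 genes qualified, including 3 members. With the genotypes exchanged there were 58. Krtap13, Krtap13-23 and Krtap13-21 had the 1st, 2nd and 3rd highest mean RoraEKO CPM among the 29. The members were chosen for this pattern, so their place among the 29 repeats that choice. Krtap13-20 was left out by its 7 counts in control replicate A1. The 4th and 5th were Isx, a homeobox gene of chromosome 8 known from the intestine, at 0 counts in every control library and 6.96 ± 3.71 CPM in RoraEKO, and Gm45588, a predicted gene of chromosome 7, at 0.0860 ± 0.0794 and 2.56 ± 1.64 CPM (SD, n = 4 each). Of the 29, 3 were on chromosome 16, and these were the 3 members. With 1 count or fewer for off and more than 10 counts for on, 7 genes remained, of which 2, Krtap13 and Krtap13-21, were members, and 10 showed the reverse.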

How the data were processed

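Per the labels, total RNA of the epidermis was made into Truseq libraries, which per the study's methods were stranded and poly(A)-enriched, and the submitters' processing notes name bcl2fastq 2.20.0.422, STAR 2.5.3a, RSEM, edgeR 3.28.0 and GRCm39. The authors deposited expected counts (RSEM estimated counts per gene, with no scaling for depth or length) of 55416 Ensembl genes in 8 columns, 1 per library, and 2.99% of the values were not whole. The annotation release behind them and the strand setting of the counting are not given in the sources used here.

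Genotypes came from the labels. Counts were rounded, filtered with filterByExpr, scaled by TMM and compared in edgeR 4.0.16 (legacy quasi-likelihood test, R 4.3.3) over all 8 libraries without covariates, with Benjamini-Hochberg adjustment over 13147 genes. Standard errors refer to the difference between genotype means of log2 CPM, with a prior count of 2. Ratios of pooled counts have exact 95% counting intervals, and a floor of 3 counts per library was used. Depth was 17286924 to 26705532 counts per library. Symbols and coordinates were taken from GENCODE release 39, in which 54749 identifiers matched. Upstream sequences were read from GRCm39, and RefSeq promoters (GRCm38.p6) served only for motif shares. The RefSeq promoter table held 2 of the 6 members. Scripts were tested on simulated data, and plots were drawn with matplotlib.

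The members and lists were chosen with earlier results of these data known. The rule for names took Rora, the 6 members and Krtap13-22, the 5 genes with the off-to-on pattern and the highest mean RoraEKO CPM, other Krtap genes with that pattern, called (up to 3 per direction) or highest in control (3), the 3 nearest tested genes on each side of the members and any called gene within 500 kb, and in each marker list the called genes (up to 3) and the one highest in control. Names outside this rule, such as Ddx3y, krtap20-23, Krt1, Krt2, Krt5, Krt10, Krt14, Krt15 and Mitf, were chosen after their values were seen. Alternatives were RLE size factors, DESeq2 1.42.0, the non-legacy test, all genes with at least 1 count, at least 10 counts in every library, the title letter as a block, Xist as a covariate, counts not rounded, another window, another pattern threshold, the longest transcript as the length and each library left out.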

Additional observations from a re-analysis of the deposited data

Results flagged for a closer look

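Among 38 groups of 4 libraries that were looked at (levels of the Krtap13 genes and Rora, and summed levels of gene lists), 1 held a library far from the others. Krtap13-21 was at 0.0375 CPM in control replicate C6 and at 0 CPM in the other control libraries. This is a single count, and beside 3 libraries at 0 any count stands apart in this way, so that the usual rate of about 1 in 20 groups marked by chance does not apply to it.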

How the results depend on the processing

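The 4 members called higher stayed at 4 under 15 of the 16 alternatives of the fit and were 0 when at least 10 counts were required in every library, since that filter removes genes that are absent from control and left 1 member to test. These 4 members show the pattern for which the group was chosen, so their calls under any fit are no further result. Their summed RoraEKO level ranged from 110 to 163 CPM with RoraEKO libraries left out. Each member has 1 transcript of 1 exon, so the longest transcript as the length could not change a level. The number of genes called higher (302) was 518 with DESeq2 and 184 with Xist as a covariate, and ranged from 174 to 383 with libraries left out, and the number called lower (423) ranged from 283 to 513. Other Krtap genes called lower (1) were 8 with DESeq2, 2 with the non-legacy test, 7 with all genes of at least 1 count, and 14 with the title letter as a block or with Xist as a covariate, and 1 to 6 with libraries left out, while those called higher (0) were 0 to 1. The genotypes share no replicate numbers, so libraries were not paired by number, and a block on the first letter of the title called 420 genes higher and 579 lower. With libraries left out, hair shaft keratins called higher were 0 to 4, hair regulators called higher 0 to 1 and lower 0 to 1, and neighbours called higher 0 to 1. The 1 regulator called lower was 0 with RLE size factors, with all genes of at least 1 count and with at least 10 counts in every library. The log2 fold change of Rora was 0.17 with Xist as a covariate and ranged from -0.23 to 0.15 with libraries left out. That of Krtap13-24 was -0.033 with the letter block and ranged from -0.17 to 0.40, and that of Krtap26-1 was 0.28 with the letter block and ranged from -0.60 to 1.31. Genes with the off-to-on pattern (29) were 7, and with the reverse 10 in place of 58, at 1 count or fewer and more than 10 counts, and with libraries left out they ranged from 31 to 56 and from 67 to 100. Leaving out a library removes a condition of the pattern, so these numbers could not fall. Of the libraries left out, control A1 moved the medians of the hair follicle lists and of Krtap genes outside chromosome 16 most. Apart from what the filter above removes, the cause of these shifts was not tested. The few control counts of the switched-on genes (0 to 7 per library) limit their folds.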
